A study of Mus musculus with 16 samples.

Results

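Naive pluripotency genes are the genes that maintain or mark the naive state of mouse embryonic stem cells, a state like that of the cells of the early embryo before implantation. The 10 genes described here are Esrrb, Klf2, Klf4, Klf5, Tfcp2l1, Tbx3, Prdm14, Zfp42, Dppa3 and Dppa5a, given by a list of Ensembl identifiers. The list uses no measured values, but it was drawn up with earlier results of these data known. They were 10 of the 54446 mouse gene identifiers counted in every library. All 10 passed the filter on low counts, which left 27488 identifiers, and 8 of them averaged at least 100 CPM (counts per 1000000 mouse counts after TMM scaling, edgeR's correction for library makeup) over the 12 libraries of 10, 20 and 60 min, as did 2161 identifiers in all. Prdm14 and Dppa3 did not reach that level.

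The study sequenced new RNA captured from mouse embryonic stem cells of 2 genotypes, CKO (conditional knockout of Mettl14) and Control. The Mettl14 protein binds Mettl3, and together they write m6A, a methyl mark on adenosines of messenger RNA. Both genotypes were given 5-ethynyl uridine (EU), a uridine analogue that RNA polymerases build into new transcripts, at 0.5 mM for 10, 20, 30 or 60 min, 48 h after seeding. Each of the 8 combinations had 2 libraries, 16 in all. All groups grew in the same medium, which held leukaemia inhibitory factor (LIF) at 1000 U/ml, the GSK3 inhibitor CHIR99021 at 3 µM and the MEK inhibitor PD0325901 at 1 µM, and the labels give the strain C57BL/6 throughout. How and when Mettl14 was deleted, and whether either genotype is 1 clone, is not given in the sources used here. The labels speak of 8 plates, as many as there are groups, and name no separate cultures for the 2 libraries of each, so a p-value here reflects the spread between libraries that may be technical repeats. The level of Mettl14 itself and the defining markers of embryonic stem cells and of other cell types were not analysed here, because the sources pair no other identifier with a symbol.

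The naive state is held by a network of transcription factors that activate one another, and the medium feeds that network at several points. LIF acts through STAT3, whose direct targets include Klf4 and Tfcp2l1, and LIF signalling also sustains Tbx3 and Klf5. Inhibition of GSK3 relieves the repressor Tcf7l1 from targets such as Esrrb, and inhibition of MEK removes a differentiation signal that also destabilises the Klf2 protein. Prdm14 represses genes of FGF signalling and of DNA methylation, Zfp42 (also called Rex1) is the classic marker of the naive state, Dppa3 (Stella) protects DNA of the early embryo from loss or gain of methylation marks, and Dppa5a (Esg1) is an RNA-binding protein of pluripotent cells.

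Mouse counts ran from 5109162 to 28502750 per library and ERCC spike-in RNA made up 0.643% to 7.97% of counts. Both CKO libraries at 30 min stood apart: they were the shallowest (5188643 and 5109162 mouse counts), had 30583 and 31826 identifiers with at least 1 count against at most 26857 in the other 14, and correlated with each other at r = 0.769 over log2 CPM, against 0.942 to 0.989 for the other pairs. Comparisons are therefore given with and without the 30 min libraries, except those at 30 min itself. The 10 genes together took 0.297% and 0.319% of mouse counts in those libraries and 0.358% to 0.515% in the others. In captured RNA, fewer cells that express a gene and less new RNA per cell cannot be told apart.

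The promoters of Klf2, Klf4, Tfcp2l1 and Zfp42 are shown because at 10 min of EU the share of new RNA in CKO cells was higher for Klf2 and lower for Klf4 and Tfcp2l1, and because Zfp42 is the marker gene. Each runs 5′ to 3′ over 250 bases before and 50 bases after the transcription start that the promoter table uses, from RefSeq on build GRCm38.p6; for Tfcp2l1 that start lies inside the gene's outermost boundary given below. Capitals mark matches, on either strand, to the motifs searched.
Klf2: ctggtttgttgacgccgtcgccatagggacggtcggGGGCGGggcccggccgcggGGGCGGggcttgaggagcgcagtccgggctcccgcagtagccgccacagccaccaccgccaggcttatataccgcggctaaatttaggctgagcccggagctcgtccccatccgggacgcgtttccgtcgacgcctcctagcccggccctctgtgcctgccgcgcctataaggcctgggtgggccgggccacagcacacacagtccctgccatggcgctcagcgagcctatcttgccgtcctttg
Klf4: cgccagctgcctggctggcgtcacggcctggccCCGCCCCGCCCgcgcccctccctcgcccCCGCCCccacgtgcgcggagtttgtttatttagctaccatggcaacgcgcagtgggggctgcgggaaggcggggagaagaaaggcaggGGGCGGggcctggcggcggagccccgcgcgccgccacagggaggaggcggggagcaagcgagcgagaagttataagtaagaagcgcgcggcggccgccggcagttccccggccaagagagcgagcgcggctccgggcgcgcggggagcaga
Tfcp2l1: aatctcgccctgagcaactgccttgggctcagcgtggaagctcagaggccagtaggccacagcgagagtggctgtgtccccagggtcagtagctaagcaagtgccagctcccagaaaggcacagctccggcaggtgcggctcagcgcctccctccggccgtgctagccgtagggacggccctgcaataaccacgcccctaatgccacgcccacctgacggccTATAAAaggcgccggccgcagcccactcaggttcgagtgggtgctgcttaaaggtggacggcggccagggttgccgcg
Zfp42: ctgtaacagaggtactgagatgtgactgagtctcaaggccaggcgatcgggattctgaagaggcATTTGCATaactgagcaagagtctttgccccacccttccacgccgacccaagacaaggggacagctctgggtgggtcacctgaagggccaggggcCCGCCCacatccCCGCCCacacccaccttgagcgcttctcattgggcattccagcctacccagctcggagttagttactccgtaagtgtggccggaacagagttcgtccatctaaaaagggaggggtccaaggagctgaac
The windows are chr8:72318812-72319111 (plus strand) for Klf2, chr4:55532426-55532725 (minus) for Klf4, chr1:118627695-118627994 (plus) for Tfcp2l1 and chr8:43306960-43307259 (minus) for Zfp42.

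Each window was searched on both strands for the GC box that Klf and Sp proteins bind (GGGCGG), the octamer of Pou5f1 (ATTTGCAT), the site of Esrrb and its relatives (AAGGTCA), a STAT site (TTCCNGGAA), a Tcf7l1 site (CTTTGAT) and a TATA box (TATAAA). GC boxes stood in the windows of Klf4 (4 matches, of which those at 217 and 212 bases before the start adjoin and share a base), Klf2 (2 matches, at 214 and 195 bases) and Zfp42 (2 matches, at 91 and 79 bases), and 35.66% of the 32851 promoters of the same length hold one. Zfp42 also had an octamer 186 bases before its start, a motif found in 1.735% of promoters. The Tfcp2l1 window had 1 match, a TATA box 28 bases before the start that the promoter table uses, a motif found in 13.62% of promoters. The Esrrb site, the STAT site and the Tcf7l1 site, found in 4.718%, 1.148% and 3.729% of promoters, were in none of these 4 windows, nor in either window listed for Esrrb. The bases of the Klf4 window were 74.33% G or C, those of Klf2 69.33%, of Tfcp2l1 65.33% and of Zfp42 57.67%, against a median of 52.67% over all promoters.

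**Figure D1:**
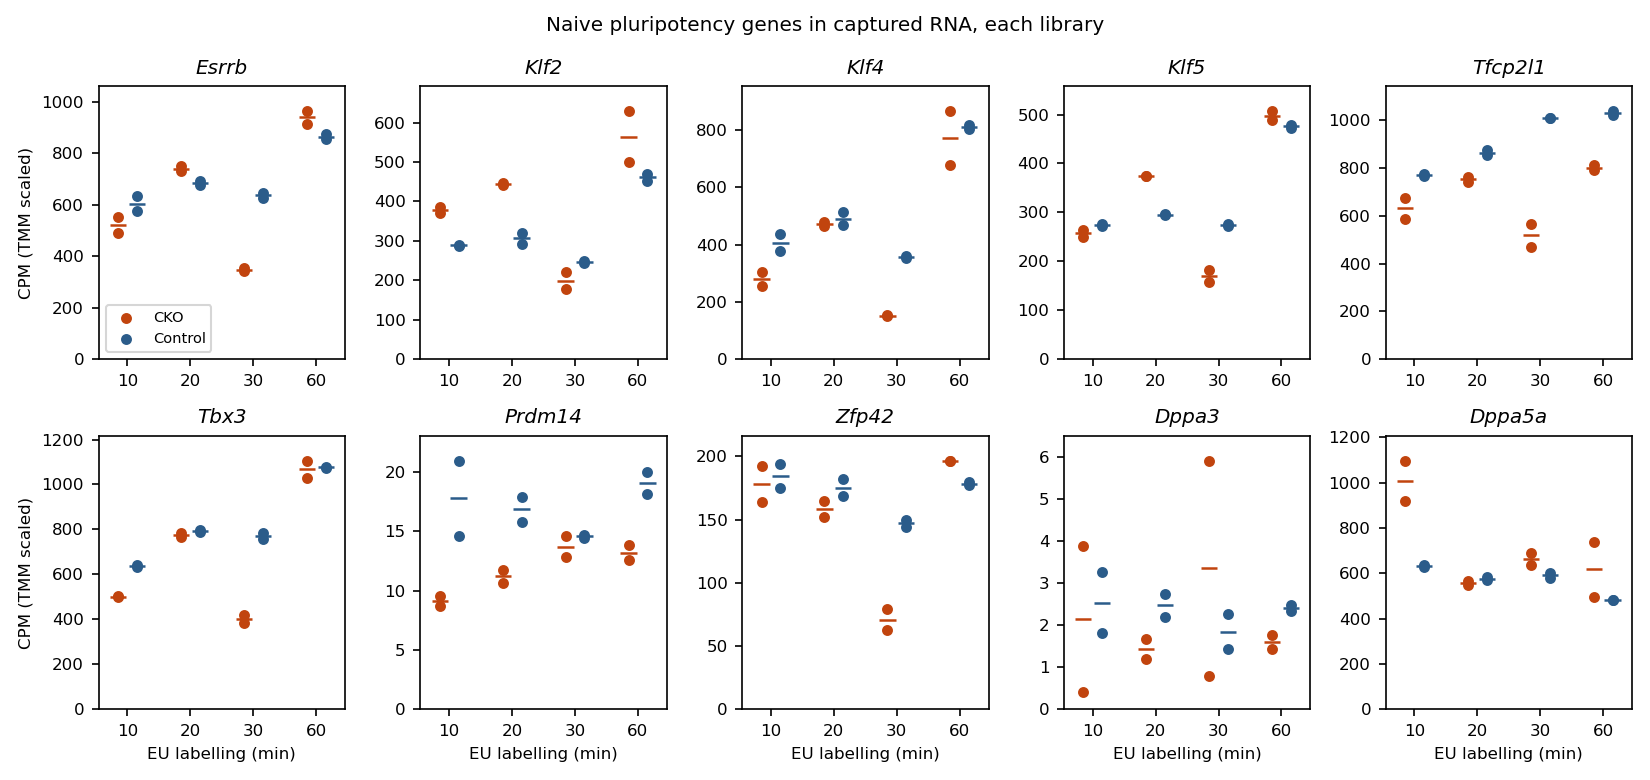
TMM-scaled CPM of the 10 genes by EU time (min), 1 panel per gene with its own axis; points are single libraries of CKO (left) and Control cells (right) and short lines are group means. Klf2 lay above Control at 10, 20 and 60 min and Tfcp2l1 below Control at every EU time, while the CKO values of 7 genes dip at 30 min. Among these 7, the Control means of Klf2, Klf4 and Zfp42 were lowest at 30 min too.

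Over all EU times and with TMM scaling, CKO cells had a lower share of new RNA from Klf4, Tfcp2l1 and Prdm14 than Control cells. With that scaling and the main filter no gene of the 10 was higher past the threshold. In the additive model of EU time and genotype, Klf4 differed by -0.47 ± 0.14 (log2 fold change, SE; adjusted p = 0.0314), Tfcp2l1 by -0.45 ± 0.11 (adjusted p = 0.0106) and Prdm14 by -0.55 ± 0.15 (adjusted p = 0.0224), all from edgeR's quasi-likelihood test adjusted over 27488 identifiers. These 3 of 10 genes stand against a background of 11.5% of identifiers called in either direction and 4.7% called lower in CKO cells. Among identifiers of at least 100 CPM, 26.8% were called, and 2 of the 8 genes at that level. The median log2 fold change of the 10 genes was -0.24, against 0.19 over all identifiers and -0.18 over those of at least 100 CPM. The calls depend on the scaling and filter. With library totals in edgeR, Klf2 (0.27, adjusted p = 0.0244) and Dppa5a (0.33, adjusted p = 0.0207) were called higher and Tbx3 was added as lower. DESeq2's size factors, DESeq2 and a stricter filter on low counts added the same 3 genes. The share of all identifiers called under these settings was not counted.

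Without the 30 min libraries 4 genes were called: Klf2 and Dppa5a were higher in CKO cells, and Tfcp2l1 and Prdm14 were lower. Klf2 differed by 0.39 ± 0.07 (adjusted p = 0.000703), Dppa5a by 0.32 ± 0.10 (adjusted p = 0.0490), Tfcp2l1 by -0.30 ± 0.06 (adjusted p = 0.00237) and Prdm14 by -0.70 ± 0.14 (adjusted p = 0.00286). Klf4 was then at -0.23 and no longer passed the test (adjusted p = 0.0892). The background in these 12 libraries was 12.6% of 20204 identifiers, and 31.2% of those of at least 100 CPM. The median of the 10 genes was -0.09, against -0.02 over all identifiers, and Esrrb (-0.01), Zfp42 (-0.03) and Klf5 (0.09) lay within 0.1 of 0.

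**Figure D2:**
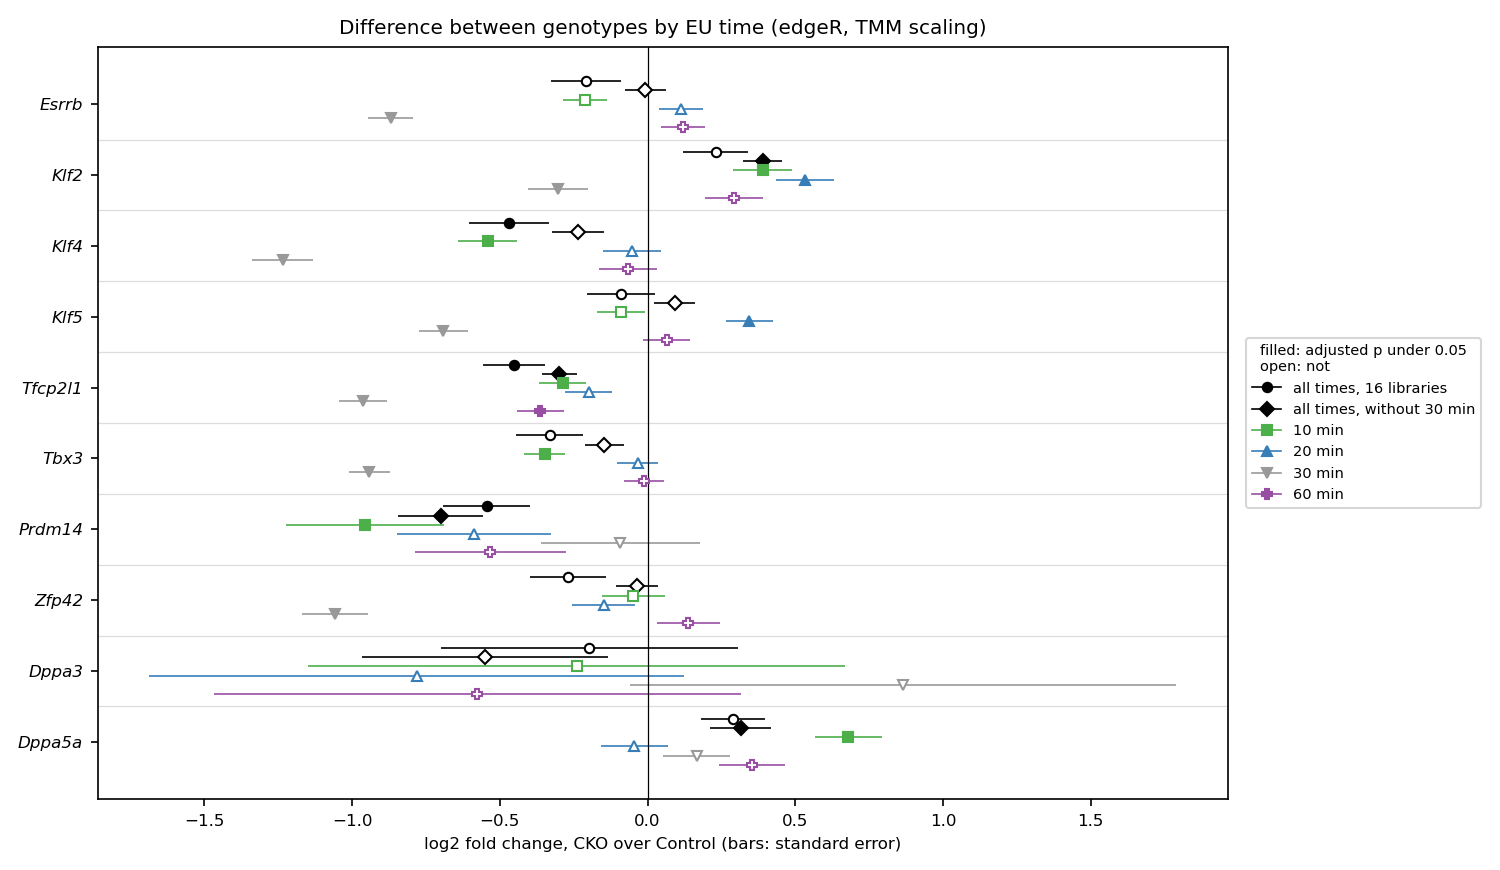
Log2 fold change, CKO over Control, of each of the 10 genes over all EU times (with and without the 30 min libraries) and at each EU time; bars are standard errors and filled points passed an adjusted p of 0.05. The 7 genes called at 30 min lie left of 0 at that time, Klf2 (-0.30) the nearest to 0. Klf2 lies right of 0 at 10, 20 and 60 min, and Tfcp2l1 and Prdm14 lie left of 0 at every EU time.

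At single EU times, 6 of the 10 genes were called at 10 min (Klf2 and Dppa5a higher, Klf4, Tfcp2l1, Tbx3 and Prdm14 lower), against 11.8% of all identifiers (6.45% higher and 5.36% lower) and 45% of those of at least 100 CPM. At 20 min, 2 genes were called, Klf2 and Klf5, both higher, against 0.96% of all identifiers (0.706% higher) and 6.62% of the abundant ones. At 30 min, 7 genes were called lower, against 48.5% of all identifiers (19.1% lower) and 87% of the abundant ones (84.4% lower). At 60 min, Tfcp2l1 was called lower, against 2.63% of all identifiers (0.84% lower) and 18.9% of the abundant ones. The counts without the 30 min libraries were 7 at 10 min (Esrrb added, lower), 2 at 20 min and 1 at 60 min, against 22.8%, 1.9% and 4.93% of 20204 identifiers. Of the abundant identifiers, 51.6%, 8.7% and 22.7% were called at these times, and 6 of the 8 genes at that level at 10 min. These calls are of shares. Scaled by ERCC totals in edgeR, 8 genes were called higher at 10 min and 0 lower, among them Klf4 (adjusted p = 0.00770), Tfcp2l1 (0.000203) and Tbx3 (0.000548). The share of all identifiers called under this scaling was not counted. Their levels moved the same way: the median log2 difference per ERCC count at 10 min was 1.33 over identifiers of at least 10 CPM. At 30 min, 6 genes were lower and Dppa5a was higher with DESeq2's size factors, library totals, DESeq2, the stricter filter and the 4 libraries alone, with Klf2 not called. For these settings too the share of all identifiers called was not counted. The genes' own values follow, by the signal each is known to answer.

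Tfcp2l1, a transcription factor of the STAT3 branch, was below Control in both libraries of every EU time (ENSMUSG00000026380, chr1:118627923-118685168). At 10 min it had 676 and 586 CPM in CKO cells, against 773 and 766 CPM in Control cells. The 20 min libraries had 762 and 742 CPM in CKO cells, against 853 and 874 CPM in Control cells. The groups did not overlap at either time. At 30 min it had 469 and 565 CPM in CKO cells, against 1008 CPM in both Control libraries, and at 60 min 791 and 810 CPM in CKO cells, against 1038 and 1022 CPM in Control cells. The log2 fold change was -0.29 at 10 min (adjusted p = 0.0169), -0.20 at 20 min (adjusted p = 0.497), -0.96 at 30 min (adjusted p = 9.68e-10) and -0.36 at 60 min (adjusted p = 0.00920). Without the 30 min libraries its difference did not vary with EU time past the threshold (interaction adjusted p = 0.577). The overall call held in all 16 fits that left out 1 library. The 10 min call was lost without Control replicate 1 (adjusted p = 0.0684), Control replicate 2 (0.0726) or CKO replicate 2 (0.172) of that time, and the 60 min call without Control replicate 1 of that time (adjusted p = 0.05002). A pseudogene, LOC115487679, overlaps the gene.

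Klf4, a zinc finger factor of the STAT3 branch and one of the reprogramming factors, was lower in CKO cells at the shortest label and close to Control at 20 and 60 min (ENSMUSG00000003032, chr4:55527137-55532475). At 10 min it had 257 and 303 CPM in CKO cells, against 376 and 438 CPM in Control cells, and the groups did not overlap. At 20 min it had 479 and 466 CPM in CKO cells, against 513 and 467 CPM in Control cells. At 60 min it had 678 and 867 CPM in CKO cells, against 803 and 816 CPM in Control cells, with the CKO libraries on either side of Control. At 30 min it had 149 and 155 CPM in CKO cells, against 354 and 361 CPM in Control cells. Klf4 differed by -0.54 ± 0.10 (log2 fold change, SE) at 10 min (adjusted p = 0.00044), -0.05 at 20 min, -1.23 at 30 min (adjusted p = 9.42e-10) and -0.07 at 60 min. The 10 min call held in all 16 fits that left out 1 library. The overall call was lost without Control replicate 2 at 10 min (-0.45, adjusted p = 0.0608).

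Tbx3, a T-box factor sustained by LIF, was lower in CKO cells at 10 min and close to Control at 20 and 60 min (ENSMUSG00000018604, chr5:119670534-119684724). It had 499 and 502 CPM in CKO cells at 10 min, against 642 and 632 CPM in Control cells. At 20 min it had 765 and 784 CPM in CKO cells, against 788 and 798 CPM in Control cells, and at 60 min 1030 and 1106 CPM in CKO cells, against 1075 and 1079 CPM in Control cells. The groups did not overlap at 10 and 20 min, by a narrow margin at 20 min, and they overlapped at 60 min. The log2 fold change was -0.35 ± 0.07 at 10 min (adjusted p = 0.000927), a call that held in all 16 fits that left out 1 library, -0.03 at 20 min and -0.01 at 60 min. At 30 min Tbx3 had 383 and 418 CPM in CKO cells, against 757 and 782 CPM in Control cells, a log2 fold change of -0.94 (adjusted p = 1.37e-10). Over all EU times it differed by -0.33 (adjusted p = 0.0587), and it passed the test in 7 of the 16 fits that left out 1 library, with adjusted p of 0.0342 to 0.0471. These left out Control replicate 1 or 2 at 20 min, Control replicate 1 or 2 at 60 min, CKO replicate 1 or 2 at 20 min, or CKO replicate 2 at 60 min. The antisense gene Tbx3os1 overlaps it, and the strand setting of the counting is not given in the sources used here.

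Klf5, a Klf family member needed in the early embryo, was higher in CKO cells at 20 min (ENSMUSG00000005148, chr14:99298691-99313412). It had 375 CPM in both CKO libraries at 20 min, against 295 and 296 CPM in Control cells, a log2 fold change of 0.34 ± 0.08 (adjusted p = 0.0296). At 10 min it had 250 and 265 CPM in CKO cells, against 277 and 271 CPM in Control cells, and at 60 min 488 and 508 CPM in CKO cells, against 479 and 473 CPM in Control cells. Neither difference passed the test (adjusted p = 0.563 and 0.995). At 30 min it had 158 and 183 CPM in CKO cells, against 272 and 277 CPM in Control cells, a log2 fold change of -0.69 (adjusted p = 3.12e-07). The 20 min call was lost in 9 of the 16 fits that left out 1 library, with adjusted p of 0.0501 to 0.594. These were the fits without any 1 of the 20, 30 or 60 min Control libraries, either 20 min CKO library, or Control replicate 1 at 10 min. The log2 fold change stayed at 0.33 to 0.35 in all 16.

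Klf2, the Klf family member whose protein is lost when MEK is active, was the gene that stood above Control at 10, 20 and 60 min (ENSMUSG00000055148, chr8:72319062-72321654). It had 386 and 372 CPM in CKO cells at 10 min, against 288 and 290 CPM in Control cells. After 20 min it had 442 and 446 CPM in CKO cells, against 321 and 292 CPM in Control cells. At 60 min it had 499 and 630 CPM in CKO cells, against 453 and 469 CPM in Control cells. The groups did not overlap at any of these times. The log2 fold change was 0.39 ± 0.10 at 10 min (adjusted p = 0.00914), 0.53 ± 0.10 at 20 min (adjusted p = 0.00347) and 0.29 ± 0.10 at 60 min (adjusted p = 0.145), and without the 30 min libraries the difference did not vary with EU time past the threshold (interaction adjusted p = 0.456). At 30 min Klf2 had 221 and 178 CPM in CKO cells, against 243 and 249 CPM in Control cells (log2 fold change -0.30, adjusted p = 0.0178). That call depends on the scaling: Klf2 was at -0.03 with DESeq2's size factors (adjusted p = 0.843) and with DESeq2 (0.855), and at -0.04 with the stricter filter (0.798). It also missed the threshold with library totals, with ERCC totals (-0.33, adjusted p = 0.289) and in the 4 libraries alone (-0.25, adjusted p = 0.0908). The median of identifiers of at least 100 CPM at 30 min was -0.66.

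Several Klf2 calls changed when 1 library was left out. Over all 16 libraries Klf2 differed by 0.23 (adjusted p = 0.166), and by 0.30 without CKO replicate 2 at 30 min (adjusted p = 0.0415). The 10 min call was lost without Control replicate 1 (adjusted p = 0.0865), Control replicate 2 (0.0549) or CKO replicate 1 (0.0833) of that time. The 20 min call was lost without Control replicate 2 of that time (0.47, adjusted p = 0.0968). The 30 min call was lost without Control replicate 1 (adjusted p = 0.113), Control replicate 2 (0.171) or CKO replicate 2 (-0.10, adjusted p = 0.458) of that time, or Control replicate 1 at 10 min (0.0520). The 60 min difference was 0.42 without CKO replicate 1 of that time (adjusted p = 0.0206) and 0.06 without CKO replicate 2 (adjusted p = 1), so its size rests on that library.

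Esrrb, an orphan nuclear receptor and a main target of GSK3 inhibition in such cells, differed little outside the 30 min libraries (ENSMUSG00000021255, chr12:86361117-86521628, where the RNA gene Gm40483 overlaps it). It had 490 and 553 CPM in CKO cells at 10 min, against 575 and 634 CPM in Control cells. At 20 min it had 749 and 732 CPM in CKO cells, against 694 and 676 CPM in Control cells, and at 60 min 913 and 964 CPM in CKO cells, against 854 and 873 CPM in Control cells. CKO cells were thus below Control at 10 min and above it at 20 and 60 min, with no overlap of groups. Esrrb differed by -0.21 (log2 fold change) at 10 min (adjusted p = 0.0638), 0.11 at 20 min (adjusted p = 0.899) and 0.12 at 60 min (adjusted p = 0.724). At 30 min Esrrb had 354 and 343 CPM in CKO cells, against 646 and 627 CPM in Control cells (-0.87, adjusted p = 1.74e-09). Without the 30 min libraries the 10 min difference passed the test (-0.25, adjusted p = 0.0162) and the change of the difference with EU time did too (interaction adjusted p = 0.0441). The 10 min difference also passed in 6 fits that left out 1 library: Control replicate 1 or CKO replicate 2 at 10 min, or either CKO library at 30 or 60 min (-0.23 to -0.32, adjusted p of 0.0143 to 0.0451).

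Prdm14, the repressor of FGF signalling and DNA methylation genes, had low counts and was below Control at 10, 20 and 60 min (ENSMUSG00000042414, chr1:13113428-13127163). It had 8.73 and 9.58 CPM in CKO cells at 10 min (101 and 119 counts), against 21.0 and 14.6 CPM in Control cells (283 and 219 counts). After 20 min of EU it had 11.8 and 10.6 CPM in CKO cells, against 17.9 and 15.8 CPM in Control cells, and at 60 min 13.8 and 12.6 CPM in CKO cells, against 18.2 and 20.0 CPM in Control cells. The groups did not overlap at these times. At 30 min they did, with 12.8 and 14.6 CPM in CKO cells, against 14.7 and 14.5 CPM in Control cells. Prdm14 differed by -0.96 ± 0.27 (log2 fold change, SE) at 10 min (adjusted p = 0.0178), -0.59 ± 0.26 at 20 min (adjusted p = 0.632), -0.09 ± 0.27 at 30 min (adjusted p = 0.788) and -0.53 ± 0.26 at 60 min (adjusted p = 0.494). The overall call was lost without Control replicate 1 at 10 min (-0.46, adjusted p = 0.0536) or Control replicate 2 at 60 min (-0.54, adjusted p = 0.0519). The 10 min call was lost without Control replicate 1 (-0.70, adjusted p = 0.229) or CKO replicate 1 (-0.92, adjusted p = 0.0786) of that time.

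Zfp42, the marker zinc finger gene, did not differ past the threshold between genotypes outside the 30 min libraries (ENSMUSG00000051176, chr8:43295067-43307009). It had 192 and 164 CPM in CKO cells at 10 min, against 194 and 175 CPM in Control cells. At 20 min it had 152 and 164 CPM in CKO cells, against 168 and 182 CPM in Control cells, and at 60 min 196 and 197 CPM in CKO cells, against 179 and 178 CPM in Control cells. These differences had adjusted p of 0.921, 0.930 and 0.867. At 30 min Zfp42 had 78.8 and 62.4 CPM in CKO cells, against 150 and 144 CPM in Control cells (-1.06, adjusted p = 4.88e-08). Its pseudogene Zfp42-ps1 may share reads with it.

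Dppa5a, the RNA-binding protein gene, was higher in CKO cells at the shortest label (ENSMUSG00000060461, chr9:78367052-78368199). It had 921 and 1097 CPM in CKO cells at 10 min, against 635 and 626 CPM in Control cells, a log2 fold change of 0.68 ± 0.11 (adjusted p = 0.000177) that held in all 16 fits that left out 1 library. The 20 min libraries had 566 and 548 CPM in CKO cells, against 581 and 568 CPM in Control cells (-0.04). At 60 min it had 738 and 497 CPM in CKO cells, against 483 CPM in both Control libraries (0.35, adjusted p = 0.116). The CKO libraries at 60 min lay far apart, 1 of them near Control. The difference was 0.0069 without CKO replicate 1 of that time (adjusted p = 1) and 0.56 without CKO replicate 2 (adjusted p = 2.74e-06), and it also passed the test without either 30 min CKO library (0.30 and 0.31, adjusted p = 0.00317 and 0.00347). At 30 min Dppa5a had 635 and 689 CPM in CKO cells, against 581 and 600 CPM in Control cells (0.17, adjusted p = 0.225), where most abundant identifiers were lower. It was called higher under the 5 other settings named above (0.22 to 0.47, adjusted p of 0.00424 to 0.0227). It also passed the test without CKO replicate 1 at 30 min (0.23, adjusted p = 0.0394) or without either CKO library at 60 min (0.21, adjusted p = 0.0172 and 0.0164). The pseudogenes Dppa5b and Dppa5c may share reads with Dppa5a.

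Dppa3, the maternal factor gene, had few counts, and no difference between genotypes passed the test (ENSMUSG00000046323, chr6:122626424-122630271). Its libraries held 5 to 67 counts. At 10 min it had 3.89 and 0.402 CPM in CKO cells, against 3.26 and 1.80 CPM in Control cells, and at 30 min 0.800 and 5.92 CPM in CKO cells, against 2.26 and 1.44 CPM in Control cells. At 10 and 30 min the CKO libraries thus differed more from each other than from Control. At 20 and 60 min both CKO libraries lay below both Control libraries. Dppa3 had a mean of 1.43 CPM in CKO cells at 20 min, against 2.47 CPM in Control cells. At 60 min Dppa3 had a mean of 1.61 CPM in CKO cells, against 2.40 CPM in Control cells. Dppa3 differed by -0.78 ± 0.91 (log2 fold change, SE) at 20 min and -0.58 ± 0.89 at 60 min. Its overall log2 fold change was -0.20 ± 0.50 (adjusted p = 0.835). Its pseudogene Dppa3-ps may share reads with it.

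The difference between genotypes varied with EU time for 8 of the 10 genes (all but Prdm14 and Dppa3; interaction with 3 degrees of freedom), against 22.7% of all identifiers and 89.9% of those of at least 100 CPM. Without the 30 min libraries it did so for 3, Esrrb (adjusted p = 0.0441), Klf5 (adjusted p = 0.0169) and Tbx3 (adjusted p = 0.0211), against 5.58% and 26.1%. At 30 min the median log2 fold change of identifiers of at least 100 CPM was -0.66, with quartiles of -0.90 and -0.41. Klf4 (-1.23), Zfp42 (-1.06), Tfcp2l1 (-0.96) and Tbx3 (-0.94) lay below the lower quartile, Esrrb (-0.87) and Klf5 (-0.69) between the quartiles, and Klf2 (-0.30) and Dppa5a (0.17) above the upper one. The part of depth and library quality in the 30 min values was not tested.

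Longer labelling raised the share of most of these genes in both genotypes. Between 10 and 60 min, Esrrb, Klf2, Klf4, Klf5, Tfcp2l1 and Tbx3 rose and Dppa5a fell in CKO cells, and the same 7 genes moved the same way in Control cells. The background was 15.2% of identifiers in CKO cells (8.96% rose and 6.24% fell) and 10.1% in Control cells (6.88% rose and 3.21% fell), or 58.7% of those of at least 100 CPM in CKO cells and 38.1% in Control cells. The median log2 change of the 10 genes was 0.55 in CKO cells and 0.47 in Control cells, against 0 over all identifiers in both, and over the abundant ones 0.15 in CKO cells and 0.09 in Control cells. Again 7 genes were called in each genotype without the 30 min libraries, against 26.7% of identifiers in CKO cells and 19.3% in Control cells. Of those of at least 100 CPM, 63.3% were then called in CKO cells and 44.6% in Control cells. The comparisons of the genotypes at 10 and 60 min use these same libraries.

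Among the genes that rose, Klf4 had the largest change, 1.46 ± 0.10 in CKO cells (adjusted p = 7.35e-11), against 0.99 ± 0.10 in Control cells (adjusted p = 9.70e-08). Tbx3 rose by 1.09 in CKO cells and by 0.76 in Control cells. Klf5 rose by 0.95 in CKO cells and by 0.80 in Control cells, and Esrrb by 0.85 in CKO cells and by 0.52 in Control cells. For these 4 genes the fitted rise was the larger one in CKO cells, and the difference between the rises was not tested on its own. Klf2 rose by 0.57 in CKO cells and by 0.67 in Control cells, and Tfcp2l1 by 0.34 in CKO cells and by 0.42 in Control cells. The largest adjusted p among these rises was 0.00269. Dppa5a fell by 0.71 in CKO cells (adjusted p = 5.50e-05) and by 0.38 in Control cells (adjusted p = 0.0288). Zfp42 (0.14 in CKO cells, -0.04 in Control cells), Prdm14 (0.53 in CKO cells, 0.10 in Control cells) and Dppa3 (-0.41 in CKO cells, -0.07 in Control cells) did not pass the test in either genotype. The rise of Tfcp2l1 in CKO cells lost its call without CKO replicate 2 at 10 min (0.24, adjusted p = 0.0804). The fall of Dppa5a in Control cells lost its call in 12 of the 16 fits that left out 1 library (adjusted p of 0.0509 to 0.233), all but those without a CKO library at 30 or 60 min.

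**Figure D3:**
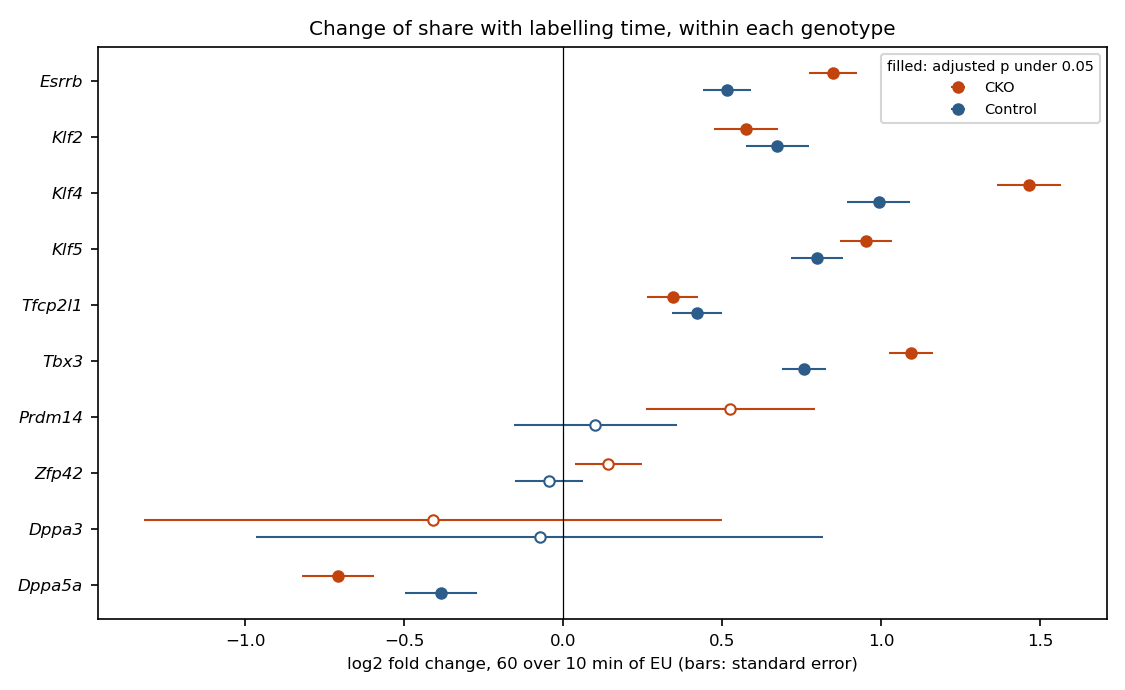
Log2 change in the share of new RNA between 10 and 60 min of EU for each of the 10 genes in CKO and Control cells, from edgeR; bars are standard errors. The 6 genes that rose lie right of 0 in both genotypes, Dppa5a lies left of 0 in both, and the bars of Dppa3 span several times those of Klf4.

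The genes' profiles over the 12 libraries of 10, 20 and 60 min were compared as Pearson correlations of log2 CPM, as a description of libraries that share EU time, genotype and depth. Klf4 and Tbx3 were alike at r = 0.981, with Tbx3 the identifier ranked 9 among the 9283 of at least 10 CPM by likeness to Klf4. Esrrb had r of 0.972 with Klf4, 0.971 with Tbx3 and 0.960 with Klf5, which ranked 23, 24 and 48 by likeness to Esrrb. Of these genes Klf2 was most like Klf5 (0.852, ranked 243 by likeness to Klf2) and had 0.245 with Tfcp2l1 and -0.19 with Prdm14. Tfcp2l1 had r of 0.822 with Tbx3, 0.809 with Klf4 and 0.788 with Prdm14. By likeness to Tfcp2l1, Tbx3 ranked 728 and Prdm14 982, so many other identifiers were more like it than these genes. Dppa5a ran against Tfcp2l1 (-0.81), Tbx3 (-0.76) and Klf4 (-0.75), while Zfp42 had no r above 0.343 with another of these genes. The 3 identifiers most like each gene have no symbol in the sources used here.

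Set against the spike-in RNA, counts of all 10 genes had a positive slope on EU time in both genotypes. The ERCC RNA was added after capture, so counts per 1000 ERCC counts carry cell number, RNA recovery and capture yield along with new RNA. At 10 min Klf2 had 11.4 ± 0.945 counts per 1000 ERCC counts in CKO cells and 3.48 ± 0.145 in Control cells (SD, n = 2 each), a log2 difference of 1.71. Dppa5a differed by 1.99, Zfp42 by 1.27, Klf5 by 1.23, Esrrb by 1.11, Tfcp2l1 by 1.03, Tbx3 by 0.97, Klf4 by 0.78, Dppa3 by 0.42 and Prdm14 by 0.39. The median over identifiers of at least 10 CPM at 10 min was 1.33, so Klf2 and Dppa5a lay above it and the other 8 below it. That median was 0.40 at 20 min, -0.59 at 30 min and 0.03 at 60 min. Klf4, Tfcp2l1 and Tbx3, called lower in CKO cells by share at 10 min, thus lay above Control per ERCC count in both libraries, and Prdm14 overlapped with Control.

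The slope on EU minutes gives the accumulation per minute as a description. Because 30 min is the mean of the 4 EU times, the 30 min libraries do not enter the slope, only its standard error, and slopes, ratios and counts are the same without them. Tfcp2l1 gained 1.64 ± 0.21 counts per 1000 ERCC counts per min in CKO cells, against 2.37 ± 0.23 in Control cells (SE, n = 8 libraries each). Prdm14 gained 0.0279 ± 0.0030 per min in CKO cells, against 0.0429 ± 0.0016 in Control cells. With the 30 min libraries left out, the standard errors for Tfcp2l1 were 0.16 in CKO cells and 0.058 in Control cells, and for Prdm14 0.0015 in CKO cells and 0.0018 in Control cells (n = 6 libraries each). The log2 ratio of slopes was -0.53 for Tfcp2l1 and -0.62 for Prdm14, both below the lower quartile of 9234 identifiers of at least 10 CPM with a positive slope in both genotypes (median -0.20, quartiles -0.42 and 0.03). Dppa3, at 0.0030 ± 0.0018 in CKO cells and 0.0052 ± 0.0004 in Control cells, was also below it (-0.79).

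The other genes had slopes closer to Control. Klf2 gained 1.24 ± 0.26 per min in CKO cells, against 1.09 ± 0.05 in Control cells, a log2 ratio of 0.18 and above the upper quartile. Esrrb gained 2.08 ± 0.36 in CKO cells and 2.00 ± 0.04 in Control cells, and Tbx3 2.44 ± 0.39 in CKO cells and 2.54 ± 0.05 in Control cells. Klf4 gained 1.85 ± 0.39 in CKO cells and 1.95 ± 0.13 in Control cells. For these 4 genes the difference was smaller than the standard error of the CKO slope. Klf5, Zfp42 and Dppa5a had log2 ratios of -0.03, 0.04 and 0.01. In all, 4 of the 10 genes had the higher slope in CKO cells (Esrrb, Klf2, Zfp42 and Dppa5a) and 6 the lower, where 72.6% of 9283 identifiers had the lower slope in CKO cells. The number with the higher slope was 6 without CKO replicate 1, 1 without CKO replicate 2 and 2 without Control replicate 2 at 60 min.

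**Figure D4:**
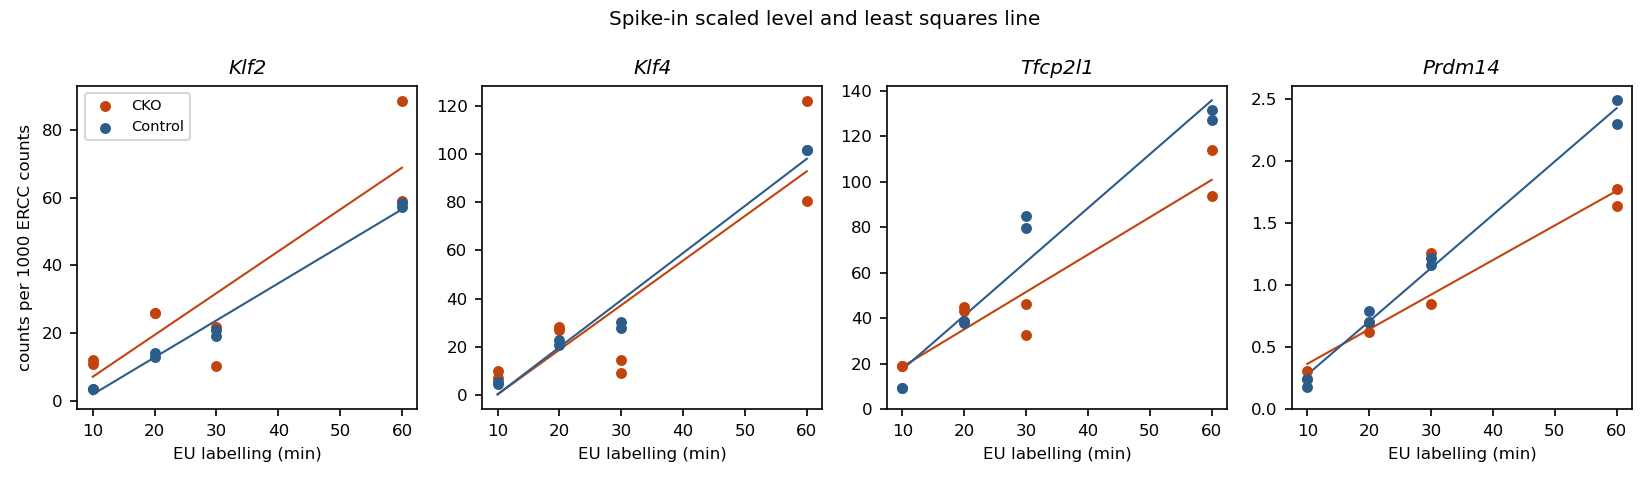
Counts per 1000 ERCC counts of Klf2, Klf4, Tfcp2l1 and Prdm14 by EU time (min), 1 panel per gene with its own axis; points are single libraries and lines are the least squares fits for CKO and Control cells. The CKO line is the shallower one for Tfcp2l1 and Prdm14, the CKO points of Klf4 and Tfcp2l1 at 30 min lie below the Control points, and the CKO points of Klf2 and Klf4 at 60 min lie far apart.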

How the data were processed

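EU-labelled RNA was captured with a Click-iT kit and sequenced from stranded SMARTer libraries, per the labels' protocols, which call the RNA both total and polyA. Per the submitters' processing notes the tools were CASAVA, Trimmomatic (0.38), HISAT2 (2.1.0) and HTSeq, on build mm10. No source used here gives the annotation release, the strand setting or whether HTSeq counted exons or whole genes. The deposited values are raw read counts per Ensembl gene identifier and per ERCC species, not normalised. Counts of antisense or overlapping genes are therefore uncertain.

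Mouse counts were scaled by TMM, filtered by edgeR's rule by group and tested in edgeR 4.0.16 under R 4.3.3 (glmQLFit with robust = TRUE, then glmQLFTest), with Benjamini-Hochberg adjustment over all identifiers tested and a threshold of 0.05. The model was additive in EU time and genotype, or had 8 group means for single times, the interaction and 60 against 10 min; all groups share the estimate of the spread. Standard errors come from the F statistic. TMM makes these changes of share, not of amount. The scripts were tested on simulated data. Symbols of the 10 genes come from the rule that chose them; the members, lists and tests were chosen with earlier results of these data known, and all 10 genes are described in every comparison. The wider lists (LIF network, core, primed and opposing factors, other cell types) were not analysed here, for want of symbols. Gene positions and promoters are from RefSeq on GRCm38.p6 (mm10): 10 genes matched by symbol, and 5 had a promoter.

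The alternatives were other scalings, DESeq2 1.42.0, other filters, a replicate block, single EU times left out, EU time as log2 minutes, the 4 libraries of a time alone, and each library left out. Each library was counted as a replicate. The 2 libraries of every group differed beyond sampling noise (chi-square per degree of freedom of 3.59 to 23.5), which cannot tell separate cultures from technical repeats. Intervals and spreads cover these libraries only.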

Additional observations from a re-analysis of the deposited data

Results flagged for a closer look

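For 8 genes the difference between CKO and Control cells changed across the EU times by edgeR's interaction test. The same test called 22.7% of all identifiers and 89.9% of those of at least 100 CPM, a level that all 8 genes reached. The adjusted p was 2.38e-07 for Esrrb, 0.000334 for Klf2, 1.28e-06 for Klf4, 1.95e-06 for Klf5, 3.59e-05 for Tfcp2l1, 2.00e-07 for Tbx3, 8.46e-06 for Zfp42 and 0.00877 for Dppa5a. Without the 30 min libraries, whose CKO pair stands apart in depth and in the number of identifiers detected, the adjusted p was 0.456 for Klf2, 0.0501 for Klf4, 0.577 for Tfcp2l1, 0.354 for Zfp42 and 0.0675 for Dppa5a. Dppa5a also lost the call without Control replicate 1 (adjusted p = 0.0653), Control replicate 2 (0.0760) or CKO replicate 2 (0.116) at 10 min.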

How the results depend on the processing

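Of the 10 genes, 3 passed over all EU times. The number was 6 with DESeq2's size factors in edgeR, with library totals, with DESeq2 and with the stricter filter (at least 1 CPM in 8 libraries), each adding Klf2 and Dppa5a (higher) and Tbx3 (lower). It was 1 without the 10 min libraries (Tfcp2l1) and 0 with ERCC totals in edgeR (2 at an unadjusted p under 0.05). At 20 min, 2 passed, against 0 with ERCC totals in edgeR (3 unadjusted), 1 with no filter and 5 in a fit of the 4 libraries alone. At 60 min, 1 passed, against 0 with ERCC totals in edgeR (0 unadjusted) and 2 with DESeq2, with no filter, with a replicate block and in a fit of the 4 libraries alone. Without the 30 min libraries the interaction held for 3 rather than 8. The share of all identifiers called was counted only for the main fit and the fit without the 30 min libraries. The counts under the other settings, and with 1 library left out, thus have no background beside them.

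Leaving out 1 library at a time gave 2 to 4 genes over all EU times, 4 to 7 at 10 min, 0 to 2 at 20 min, 6 to 8 at 30 min, 0 to 2 at 60 min (the fits with 0 had 2 at an unadjusted p under 0.05), 7 to 8 for the interaction, 6 to 7 for each change between 10 and 60 min, and 1 to 6 genes with the higher spike-in slope in CKO cells.

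Scaling by ERCC totals turned the direction at 10 min for Esrrb (1.12), Klf4 (0.79), Klf5 (1.24), Tfcp2l1 (1.03), Tbx3 (0.98), Prdm14 (0.38) and Zfp42 (1.27), and between 10 and 60 min for Dppa5a in CKO cells (1.37) and for Zfp42 (3.34), Dppa3 (3.31) and Dppa5a (3.00) in Control cells. Except for Prdm14 at 10 min (adjusted p = 0.407), each of these passed the test in its new direction, and 8 genes were then called higher at 10 min and 0 lower. The share of all identifiers called under this scaling was not counted. At 10 min the median log2 difference per ERCC count was 1.33 over identifiers of at least 10 CPM. This scaling divides by the spike-in and not by the mouse total. Library totals turned Klf2 at 30 min (0.0010). The cause of the other changes was not tested.

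Same-numbered replicates did not deviate together (r of -0.058 to 0.054 over 28 pairs of groups), so the numbers do not pair the samples. The block added Dppa5a at 60 min (adjusted p = 0.00270) and changed no other count of calls. Depth limits Dppa3, with 5 to 67 counts, and all values rest on 2 libraries a group.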
